A study of Mus musculus with 6 samples.

Results

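The transcripts described here were those of red blood cells in mouse cerebral cortex: the adult alpha globin genes Hba-a1 and Hba-a2, the adult beta globin genes Hbb-bs and Hbb-bt, and Alas2, the erythroid enzyme that starts heme synthesis. They were chosen by symbol, and all 5 were found among the 55421 genes of the deposited tables. Total RNA was sequenced from the microdissected cortex of male wild-type C57BL/6J mice, 3 of them 6 months old and 3 of them 24 months old, with 1 library per mouse. All mice were anesthetized with isoflurane before cervical dislocation, and their brains were washed in phosphate-buffered saline. The 6-month mice are named by the numbers 10, 11 and 17 and the 24-month mice by 2, 4 and 5. Tissue powder served as the source of RNA, so the libraries held every cell of the cortex together with whatever blood remained in its vessels, and the study's methods do not mention perfusion.

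Hemoglobin is a tetramer of alpha and beta globin chains, each of which holds a heme group that binds oxygen. Circulating red cells of mammals have lost their nucleus and make no new transcripts, but young red cells, the reticulocytes, still carry globin and Alas2 messenger RNA. In brain tissue these messages are commonly read as a sign of blood in the vessels, while globin transcripts have also been reported in some neurons and glial cells.

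The members lie in 3 places of the genome. In the GRCm38 annotation, Hba-a1 (ENSMUSG00000069919) spans chr11:32283511-32284465 and Hba-a2 (ENSMUSG00000069917) spans chr11:32296489-32297298, both on the plus strand. Hbb-bs (ENSMUSG00000052305) spans chr7:103826534-103828096 and Hbb-bt (ENSMUSG00000073940) spans chr7:103812524-103813996, both on the minus strand. Alas2 (ENSMUSG00000025270) spans chrX:150547375-150570638 on the plus strand. The main transcript of each globin gene has 3 exons and that of Alas2 has 11.

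The members of each globin pair are near copies, and this bears on how their reads could be told apart. The 441 coding bases of Hbb-bs and Hbb-bt differed at 1 position, C417T (the Hbb-bs base, the position counted from the first coding base, the Hbb-bt base). The 426 coding bases of Hba-a1 and Hba-a2 also differed at 1 position, C381T, with the Hba-a1 base first. The stretches of 69 coding bases around each difference, the length of a read after trimming, carry the differing base in capitals.
Hbb-bs: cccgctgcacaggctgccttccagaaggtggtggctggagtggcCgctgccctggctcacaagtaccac
Hbb-bt: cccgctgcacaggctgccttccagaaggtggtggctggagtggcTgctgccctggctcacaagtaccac
Hba-a1: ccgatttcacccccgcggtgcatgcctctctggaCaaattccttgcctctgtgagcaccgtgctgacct
Hba-a2: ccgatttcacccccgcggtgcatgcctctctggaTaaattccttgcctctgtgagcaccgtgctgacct

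Of all windows of 69 bases along the main transcript, 64.6% of those of Hbb-bs were identical in Hbb-bt and 57.0% of those of Hbb-bt were identical in Hbb-bs. For the alpha genes, 63.5% of the windows of Hba-a1 and 82.5% of those of Hba-a2 were identical in the partner. The remaining windows lay over the coding difference and the untranslated ends, which differ more. The study's counting options named both a sharing of reads with several alignments and a minimum mapping quality, and all deposited counts were whole numbers. The split of reads within each pair is therefore uncertain, and the sum of a pair is less exposed to it than either gene.

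The stretches before the transcription starts are shown as a description, and any link between them and the levels in these libraries was not tested. The windows are RefSeq promoter sequence of GRCm38.p6, cut where an annotated exon of the gene begins, and read 5′ to 3′ on the strand of the gene: chr11:32296369-32296488 for Hba-a2, chr7:103827929-103828011 for Hbb-bs and chrX:150547255-150547374 for Alas2. Capitals mark matches on either strand to the CCAAT box, the CACCC box, the TATAA box or a GATA form, which was AGATAA or AGATAG, or else TGATAA or TGATAG. None of the matches shown overlap.
Hba-a2: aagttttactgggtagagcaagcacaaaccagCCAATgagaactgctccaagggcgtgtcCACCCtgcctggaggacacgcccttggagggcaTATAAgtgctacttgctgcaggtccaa
Hbb-bs: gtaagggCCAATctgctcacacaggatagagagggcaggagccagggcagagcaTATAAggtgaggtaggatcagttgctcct
Alas2: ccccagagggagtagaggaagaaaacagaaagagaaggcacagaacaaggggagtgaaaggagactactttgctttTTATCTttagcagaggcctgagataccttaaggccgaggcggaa

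Over the full 250 bases before each RefSeq start, all 4 globin genes held the CCAAT box, the CACCC box and the TATAA box, a combination found in 3.28% of 32851 promoters of the same length. In Hba-a2 the CCAAT match began 91 bases before the start and the TATAA match 30 bases before it. The windows of Hba-a1 and Hba-a2 shared an identical run of 247 bases. Alas2 had no CCAAT match and had 3 CACCC matches on the opposite strand, which lay inside an annotated exon and are not shown. A GATA form was found before Hba-a1, Hba-a2, Hbb-bs and Alas2 but not before Hbb-bt, against 26.5% of all promoters. These matches describe letters and not bound sites.

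Each library held between 29495379 and 36494240 counts over genes, and the 5 members together held 1850 to 3361 of them. Levels between genes are given in TPM (transcripts per 1000000), which divide by gene length, and age comparisons in CPM (counts per 1000000) after TMM scaling, a method that sets libraries level on their shared genes. The study reported sensory perception as the main process of its genes up-regulated with age. Olfactory and vomeronasal receptors are large families known from sensory cells of the nose. Per 1000000 of all counts in a library, without TMM scaling, they took 120 to 138 at 6 months and 328 to 561 at 24 months. The highest value was in mouse 2. TMM factors were 0.921 to 0.946 at 6 months and 1.04 to 1.10 at 24 months. Without them, by library totals alone, the median log2 fold change of all genes shifted by 0.19, so each member's change is also given against the median of genes with a mean CPM of at least 1. The part of these library differences in the results below was not tested.

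Hemoglobin transcripts were plainly present in every cortex, and the order of the members was the same in all 6 libraries: Hbb-bs, Hba-a1, Hba-a2, Hbb-bt and Alas2, from high to low TPM. By mean TPM, Hbb-bs ranked 843 and Alas2 ranked 11424 of the 55421 genes. The ranges of neighbours in this order overlapped only for the alpha pair, with 66.8 to 91.1 TPM for Hba-a1 and 47.0 to 83.0 TPM for Hba-a2. In raw counts, TPM and TMM-scaled CPM alike, the lowest library for each member was the 24-month mouse 2, and under library totals it was so for all but Hba-a1, which was then lowest in the 6-month mouse 10.

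At 24 months the fitted levels of all 5 members were lower than at 6 months with TMM scaling, and 1 of them, Hbb-bt, passed a false discovery rate (FDR) of 10% by the quasi-likelihood test of edgeR. Among all 32905 genes tested, 8.33% passed that threshold in the lower direction, and 17.3% did so among the 15761 genes with a mean CPM of at least 1. At the study's own threshold of 1% FDR, 0 of the 5 members and 0 of all genes (0%) passed by this test, while 3 members had an unadjusted p under 0.05 in the lower direction, as did 13.1% of all genes. The likelihood ratio and exact tests of edgeR and the Wald test of DESeq2 also passed 0 members at 1% FDR. At that threshold they passed 1703, 1122 and 227 of all genes. At 10% FDR, Hbb-bt was the only member that each of them passed, beside 2196, 1948 and 1708 of all genes in the lower direction. These tests used the same libraries. Of the genes with a mean CPM of at least 1, 70.0% were fitted lower at 24 months and 26.9% had an unadjusted p under 0.05 in that direction. In bulk tissue, fewer cells of a type and less RNA per cell cannot be told apart.

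Hbb-bs encodes an adult beta chain and was the most abundant member. Its raw counts were 1257, 1728 and 1772 in mice 10, 11 and 17 and 958, 1386 and 1475 in mice 2, 4 and 5. In CPM these were 40.8, 50.1 and 54.1 at 6 months and 29.5, 40.1 and 43.4 at 24 months. The ages overlapped, since the 24-month mouse 5 lay above the 6-month mouse 10. The mean was 48.3 ± 6.84 CPM at 6 months and 37.7 ± 7.23 CPM at 24 months (SD, n = 3 each). The log2 fold change was −0.36 with a standard error (SE) of 0.16 and an adjusted p of 0.155 by the edgeR test. Against the median of genes with a mean CPM of at least 1, the change was −0.22.

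Hbb-bt is the other adult beta globin gene. Its raw counts were 154, 215 and 187 at 6 months and 80, 149 and 138 at 24 months, which in CPM were 5.00, 6.23 and 5.71 against 2.47, 4.31 and 4.06. All 24-month mice were below all 6-month mice, which made Hbb-bt the only member whose ages did not overlap in CPM. Of all genes tested, 16.3% were non-overlapping in the same direction, and 32.5% of those with a mean CPM of at least 1. The mean fell from 5.65 ± 0.619 to 3.61 ± 0.999 CPM, a log2 fold change of −0.64 (SE 0.21, adjusted p = 0.0879). Against the median of genes with a mean CPM of at least 1, the change was −0.50.

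The Hbb-bt call rested on how the libraries were scaled and which were kept. With library totals alone the log2 fold change was −0.46 and the adjusted p was 0.182, and the ages overlapped, with 4.61 CPM in the 24-month mouse 4 and 4.60 CPM in the 6-month mouse 10. Relative to the median of genes with a mean CPM of at least 1, it was then −0.51. Without mouse 2, the log2 fold change was −0.42 (adjusted p = 0.163). Over all alternatives the adjusted p ranged from 0.0546 to 0.257, and the log2 fold change stayed below 0 in each. Leaving out any mouse but number 5 ended the call. Without mouse 10 or mouse 4, however, 0 of all genes tested passed 10% FDR, without mouse 11 it was 1 gene, without mouse 2 it was 176 and without mouse 17 it was 2476. Without mouse 5, Hbb-bt, Hbb-bs and Hba-a2 passed. The calls also rose among all genes under that setting, to 7998 in both directions, with 11.6% of all genes tested and 22.8% of those with a mean CPM of at least 1 passing in the lower direction.

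**Figure D1:**
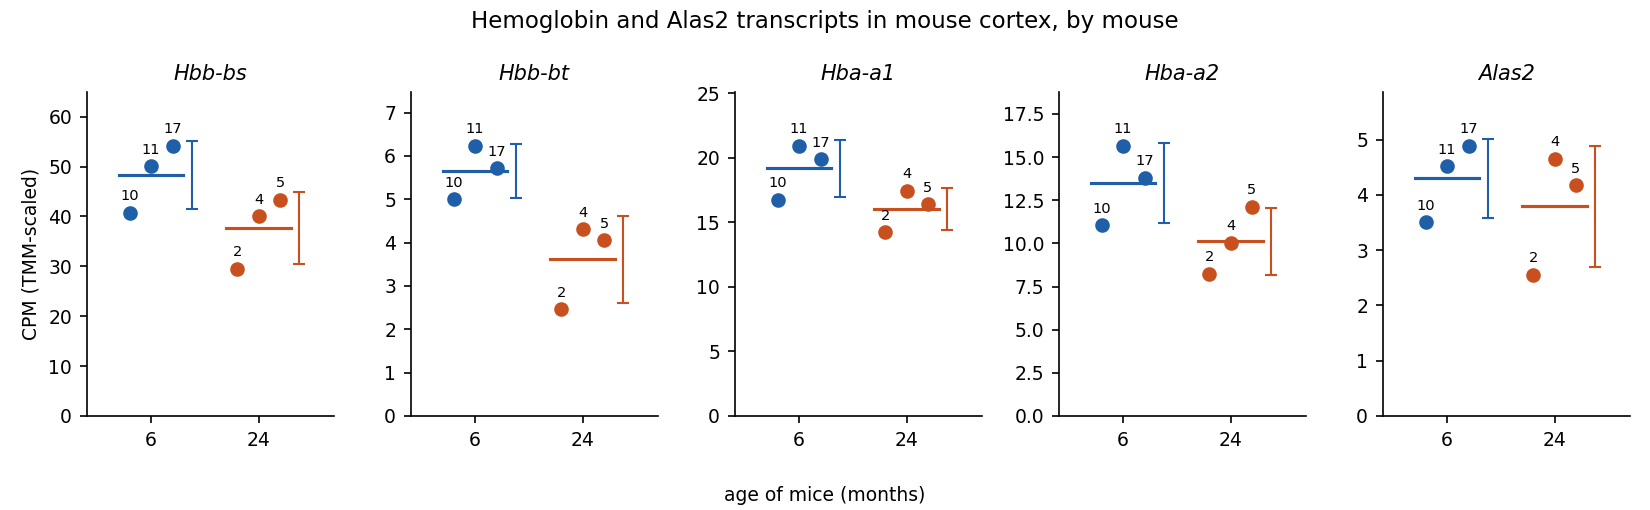
TMM-scaled CPM of the 5 members in each mouse, by age in months; points are mice with their numbers, horizontal lines are means and bars are ± SD (n = 3). Mouse 2 is the lowest point in every panel, and the ages are separate for Hbb-bt but not for the other members.

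Neither alpha globin gene passed 10% FDR. Hba-a1 had 516, 722 and 651 counts at 6 months and 462, 603 and 558 counts at 24 months, or 16.7, 20.9 and 19.9 CPM against 14.2, 17.4 and 16.4 CPM. The ages overlapped at the 6-month mouse 10. Its log2 fold change was −0.26 (SE 0.13, adjusted p = 0.204). Hba-a2 had 341, 540 and 452 counts at 6 months and 267, 347 and 412 counts at 24 months, or 11.1, 15.6 and 13.8 CPM against 8.23, 10.0 and 12.1 CPM. Here the ages overlapped because the 24-month mouse 5 lay above the 6-month mouse 10. Its log2 fold change was −0.42 (SE 0.18, adjusted p = 0.145). Both fitted values stayed below 0 under library totals, at −0.07 for Hba-a1 and −0.23 for Hba-a2. With TMM scaling and against the median of genes with a mean CPM of at least 1, Hba-a1 changed by −0.12 and Hba-a2 by −0.27.

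Alas2 encodes the erythroid form of aminolevulinate synthase and served as a red cell transcript outside the globin families. Its counts were 108, 156 and 160 at 6 months and 83, 161 and 142 at 24 months, or 3.50, 4.52 and 4.89 CPM against 2.56, 4.65 and 4.17 CPM. The ages overlapped widely, and only mouse 2 lay below the 6-month mice. The log2 fold change was −0.18 (SE 0.23, adjusted p = 0.622), or −0.04 against the median of genes with a mean CPM of at least 1. It turned to 0.0051 under library totals and to 0.045 without mouse 2, so no direction was established for Alas2.

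**Figure D2:**
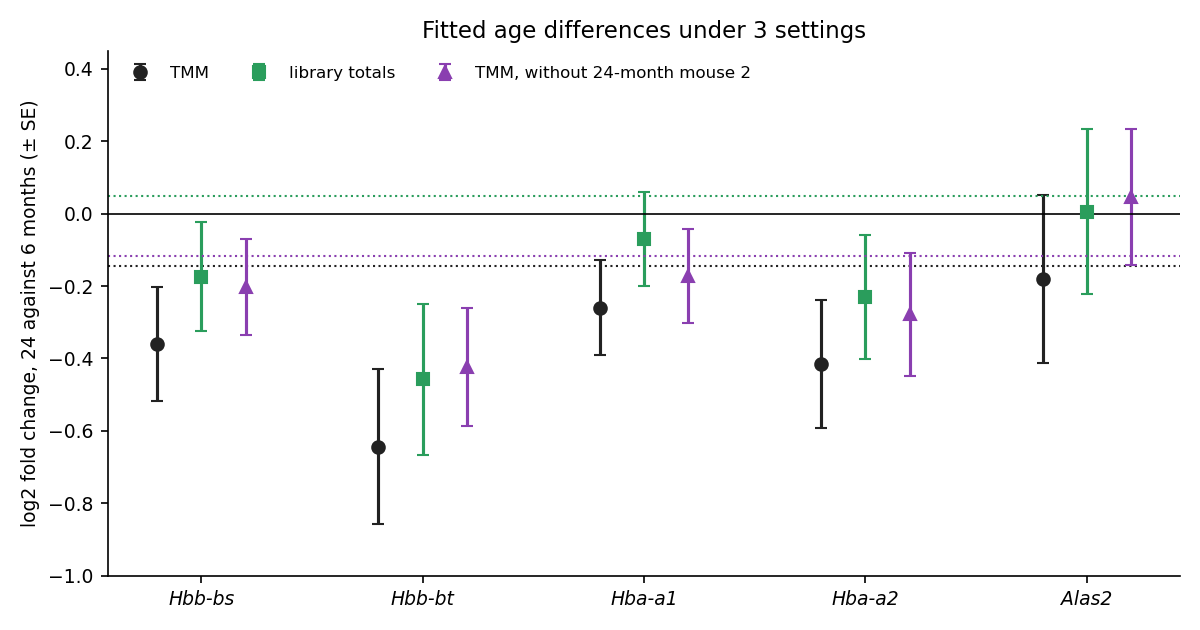
Fitted log2 fold change (24 against 6 months, ± SE) of each member under TMM scaling, under library totals and without the 24-month mouse 2; the dotted lines are the medians of genes with a mean CPM of at least 1 under the same setting. Hbb-bt is the lowest member under each of these settings, and Alas2 crosses 0.

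Summed over the 4 hemoglobin genes, the level was 73.6, 92.9 and 93.5 CPM in mice 10, 11 and 17 and 54.5, 71.8 and 75.9 CPM in mice 2, 4 and 5. The 24-month mouse 5 exceeded the 6-month mouse 10, so the ages overlapped. The means were 86.6 ± 11.3 and 67.4 ± 11.4 CPM (SD, n = 3 each). The log2 ratio of 24 to 6 months was −0.37, with a two-sided p of 0.2 by the exact permutation test. With 3 mice per age this test cannot go below 0.1. In 5 such tests, the sum and 4 ratios, every p adjusted by the Benjamini-Hochberg method was 0.5. Under library totals the log2 ratio of the sum was −0.18 (exact p = 0.5), and in deposited TPM it was −0.26 (exact p = 0.3).

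Ratios within a library do not depend on its scaling. The ratio of beta to alpha globin counts was 1.65, 1.54 and 1.78 at 6 months and 1.42, 1.62 and 1.66 at 24 months, and the log2 difference was −0.08 (exact p = 0.5). The counts of Hbb-bt per count of Hbb-bs were 0.123, 0.124 and 0.106 at 6 months and 0.0835, 0.108 and 0.0936 at 24 months. The 24-month mouse 4 lay above the 6-month mouse 17, and the log2 difference was −0.31 (exact p = 0.2). A larger change of Hbb-bt than of its near copy was therefore not established.

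The counts of Hba-a2 per count of Hba-a1 were 0.661, 0.748 and 0.694 at 6 months and 0.578, 0.576 and 0.738 at 24 months, so that mouse 5 stood with the 6-month mice. The log2 difference was −0.16 (exact p = 0.3). The counts of Alas2 per hemoglobin count were 0.0476, 0.0487 and 0.0523 at 6 months and 0.0470, 0.0648 and 0.0550 at 24 months. They differed by 0.16 on the log2 scale (exact p = 0.4), with mouse 2 the lowest and mouse 4 the highest of all. The SD of this ratio was 0.00243 at 6 months and 0.00892 at 24 months.

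**Figure D3:**
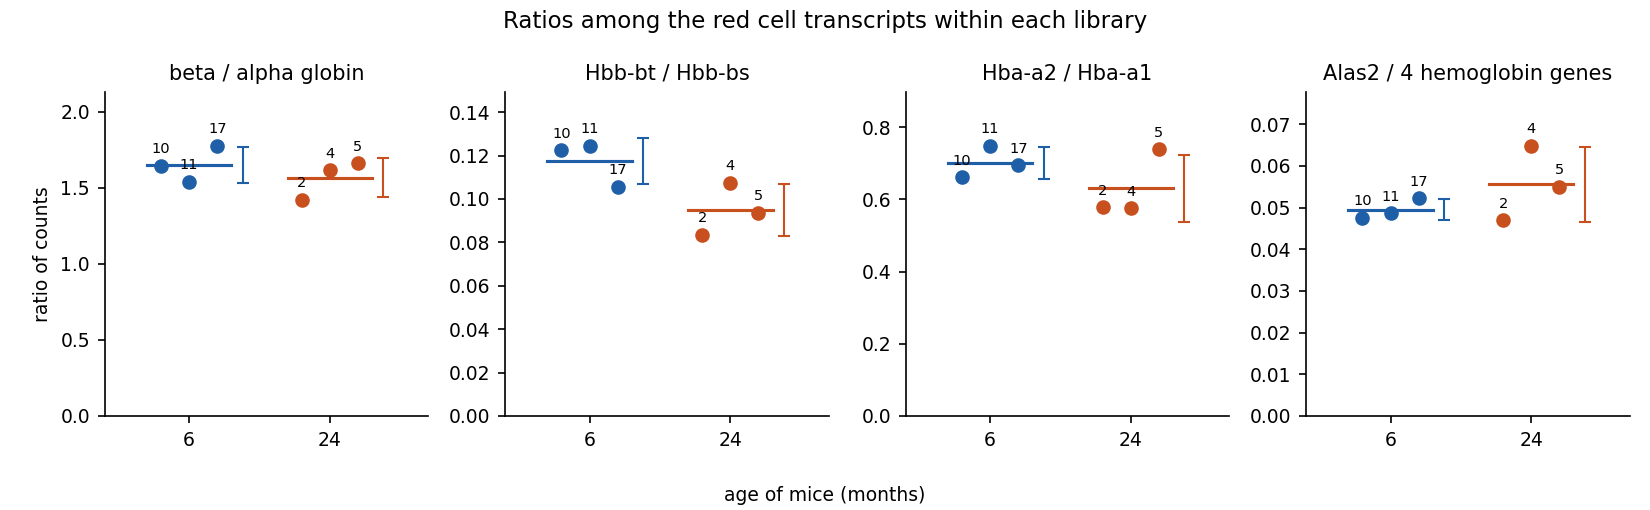
Ratios of counts within each library, by age in months; points are mice with their numbers, horizontal lines are means and bars are ± SD (n = 3). The ages overlap in all 4 panels, and the Alas2 ratio spreads more at 24 months than at 6 months.

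The members varied together from mouse to mouse. Over the 6 libraries, Pearson's r between log2 CPM values was 0.902 to 0.939 for the 6 pairs of hemoglobin genes and 0.755 to 0.887 for the 4 pairs with Alas2. These libraries share their age groups, depth and scaling, and reads within a globin pair may be shared, so r is given as a description. Against the summed hemoglobin CPM, r of Alas2 was 0.868, and 3.92% of 15756 other genes with a mean CPM of at least 1 were at or above that value. The 10 genes most alike to the sum were Pcdhb13, Lingo3, Ralgds, Aff2, Npepps, Plod1, Smg6, Tfdp1, Dbi and Zfp319, with r from 0.978 to 0.994. None of these belongs to the red cell lists, and each was lowest in mouse 2.

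Other globin genes were near the limit of detection or are known from other cells. Of 7 embryonic and minor globin genes, Hbb-bh0 had 0 counts in all libraries, where 0 allows up to 3 counts in each, and Hba-x and Hbb-bh2 had fewer than 10 counts in all. Hbb-bh1, an embryonic beta chain, had 0, 0 and 2 counts at 6 months and 4, 6 and 2 counts at 24 months (adjusted p = 0.150). Hbq1a and Hbq1b, minor alpha-like genes, had 2 to 25 and 1 to 5 counts. Among globins of other tissues, Cygb (cytoglobin) stood at a mean of 81.7 TPM and Ngb (neuroglobin) at 10.5 TPM, while Mb (myoglobin) stood at 0.52 TPM. The log2 fold changes of these were 0.06, −0.01 and 0.52, with adjusted p of 0.713, 0.982 and 0.621, and that of Ngb turned to 0.19 under library totals.

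Beyond the members, 60 genes of 4 red cell lists were analysed: membrane and cytoskeleton, cytosol and reticulocyte maturation, erythroid transcription factors and receptor, and heme synthesis. Of the 57 that were tested, 6 were higher and 6 were lower at 24 months at 10% FDR, that is 10.5% each, against 10.0% and 8.33% of all genes tested. The median log2 fold change was −0.03, against 0.15 for all genes and −0.36 for the 5 members. The fitted direction went with the level of the gene, though the 10 counts needed for testing could come from 1 age alone. A low gene could therefore enter through its 24-month counts, and how far this set the split below was not tested. Of the 16 list genes under a mean of 1 TPM, 14 were fitted higher at 24 months (87.5%), as were 88.8% of all genes tested at that level. Of the 41 list genes at or above 1 TPM, 28 were fitted lower (68.3%), as were 64.9% of all genes at that level.

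Of the 18 tested genes of the red cell membrane, 3 rose and 3 fell at 10% FDR. The shares of all genes tested were 10.0% and 8.33%, and 20.0% of those under 1 TPM rose. The genes that rose included Kel (a blood group protein) and Tspo2 (an erythroid membrane protein). Kel went from 2, 1 and 1 counts to 6, 10 and 3 counts, and Tspo2 from 3, 3 and 4 counts to 9, 14 and 6 counts. Rhag, of the Rh complex, did not overlap between ages either, with 0 to 4 against 5 to 8 counts, but did not pass (adjusted p = 0.166). Kel, Tspo2 and Rhag all stood under 1 TPM. Xk (a membrane protein that partners Kel), Tmod1 and Add2 fell, with log2 fold changes of −0.62, −0.36 and −0.37. Under library totals these were −0.43, −0.17 and −0.18, with adjusted p of 0.076, 0.268 and 0.282 by the edgeR test. Tmod1 (tropomodulin) caps actin filaments and Add2 (beta adducin) joins spectrin to actin, and both are also expressed in neurons, as is Dmtn, the most abundant gene of the list at 186 TPM (adjusted p = 0.195). Slc4a1, the anion exchanger that defines the red cell membrane, stood at 0.27 TPM. Its log2 fold change was 0.95 (adjusted p = 0.186 by the edgeR test), and 1.14 under library totals. Icam4, a red cell adhesion protein, had 0 counts in all libraries, and Cldn13 and the erythroid repressor Gfi1b had fewer than 10 in all.

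In the list of red cell cytosol and reticulocyte maturation, 2 of 19 genes fell at 10% FDR and 0 rose. Of all genes tested, 8.33% fell and 10.0% rose, and 17.3% of those with a mean CPM of at least 1 fell. Ages did not overlap in the lower direction for 7 of the 19. The same held for 16.3% of all genes tested and 32.5% of those with a mean CPM of at least 1. Gpx1 (glutathione peroxidase) was 1 of the 2 and changed by −0.29 on the log2 scale (adjusted p = 0.078). Under library totals its change was −0.09 and it did not pass (adjusted p = 0.510 by the edgeR test). Cat (catalase) and Fbxo7 had log2 fold changes of −0.26 and −0.20 with ages that did not overlap in CPM, and their adjusted p values were 0.106 and 0.174. Car2 (carbonic anhydrase, also made by oligodendrocytes) stood at 482 TPM and had an adjusted p of 0.755. Car1, the erythroid carbonic anhydrase, had 1 to 6 counts and a log2 fold change of 0.27 (adjusted p = 0.837 by the edgeR test).

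Among the erythroid regulators, 3 of the 9 tested rose at 10% FDR, namely Nfe2, Zfpm1 and Ldb1. Of all genes tested, 10.0% rose at that threshold, and 20.0% of those with a mean under 1 TPM, where Nfe2 lay. Nfe2, a transcription factor of red cell and platelet precursors, had 3, 5 and 3 counts at 6 months and 11, 11 and 8 counts at 24 months. Zfpm1, a cofactor of GATA factors, changed by 0.58 (adjusted p = 0.098), and Ldb1, an adaptor in many tissues, by 0.31 (adjusted p = 0.093). Bcl11a, a repressor of embryonic globin genes that is also made by cortical neurons, had a log2 fold change of −0.25 (adjusted p = 0.147), and Lmo2 stood at 24.8 TPM (adjusted p = 0.499). Gata1 and Klf1, which define erythroid precursors, had 0 to 7 and 2 to 13 counts and stood under 1 TPM. Their log2 fold changes were 1.69 and 1.08, with adjusted p of 0.274 and 0.277. As above, genes that low could come to be tested through their 24-month counts.

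In heme synthesis, Alas1, the form of aminolevulinate synthase used outside red cells, fell by 0.28 on the log2 scale (adjusted p = 0.080). Under library totals its log2 fold change was −0.09 and it did not pass (adjusted p = 0.513 by the edgeR test). It stood at a mean of 56.7 TPM, against 6.16 TPM for Alas2. Abcb10, Slc25a38 and Urod had ages that did not overlap in CPM but did not pass, with adjusted p of 0.157, 0.172 and 0.188. Of the 12 genes of this list, 1 fell at 10% FDR and 4 did not overlap in the lower direction. Of all genes tested these shares were 8.33% and 16.3%. Among those with a mean CPM of at least 1 they were 17.3% and 32.5%. Alad, the most abundant of the pathway at 73.0 TPM, had an adjusted p of 0.886. None of the 10 genes of heme breakdown and scavenging and none of the 9 tested genes of iron handling passed 10% FDR by the edgeR test, and 1 of each had an unadjusted p under 0.05. In the lower direction, the case of iron handling, 13.1% of all genes tested had such a p. Hp (haptoglobin, which binds free hemoglobin) went from 5, 8 and 11 counts to 11, 22 and 15 counts (adjusted p = 0.150). Hmox1, the inducible heme oxygenase, had 126, 135 and 149 counts at 6 months and 117, 116 and 127 counts at 24 months (adjusted p = 0.324). Ages also did not overlap for Blvrb, a biliverdin reductase (adjusted p = 0.656), and the heme transporter Slc48a1 (0.359), or for Aco1 (0.148) and the iron transporter Slc11a2 (0.170), each with a fitted value below 0, which turned above 0 for Blvrb and Slc48a1 under library totals. In the lower direction, 3 of 10 genes of heme breakdown and scavenging and 2 of 9 of iron handling did not overlap. The shares of all genes are those given above. Slc48a1 was the most abundant gene of heme breakdown and scavenging at 281 TPM. It was ahead of Hmox2 (constitutive heme oxygenase) at 99.7 TPM, which had an adjusted p of 0.349. The ferritin chains Fth1 at 1473 TPM and Ftl1 at 528 TPM had adjusted p of 0.211 and 0.768.

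**Figure D4:**
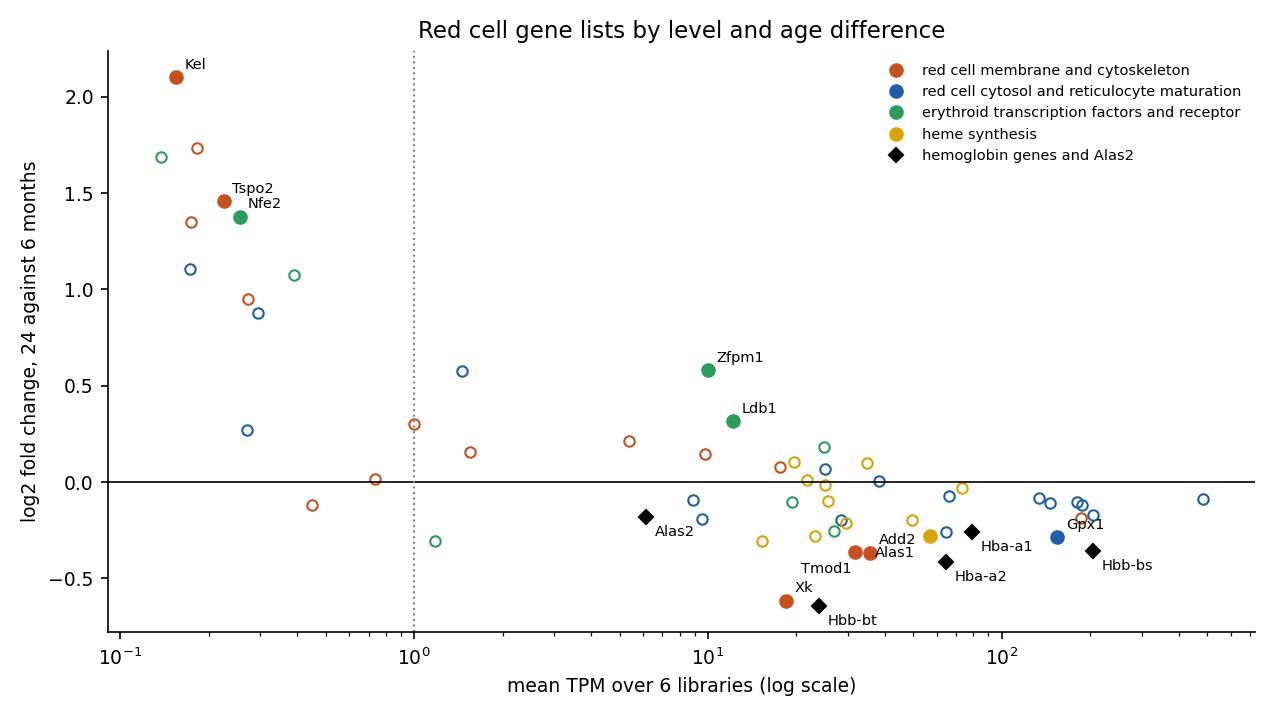
Log2 fold change (24 against 6 months) of the tested red cell list genes against their mean TPM (log scale); filled circles passed 10% FDR, open circles did not, and black diamonds are the members; some list genes are not drawn. Genes left of the dotted line at 1 TPM are mostly above 0, and the members lie to the right of it and below 0.

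Markers of vessels and of other blood cells were set beside the members for each mouse. The summed CPM of the 10 brain endothelial markers was 249, 260 and 258 at 6 months and 187, 252 and 296 at 24 months. That of the 8 pericyte and smooth muscle markers was 294, 214 and 250 against 164, 293 and 350. Both sums were lowest in mouse 2, as the members were, but highest in mouse 5. Of the endothelial markers, 1 of 10 passed 10% FDR, Vwf (von Willebrand factor), which rose by 0.82 on the log2 scale (adjusted p = 0.052), while the abundant Slc2a1 and Cldn5 had adjusted p of 0.293 and 0.738. Of all genes tested, 10.0% rose at 10% FDR. Of the pericyte and smooth muscle markers 0 of 8 passed by the edgeR test, with 0 at an unadjusted p under 0.05. Tagln, a smooth muscle protein, had 10 to 13 counts at 6 months and 14 to 25 at 24 months (adjusted p = 0.244), and the abundant Rgs5 and Vtn had adjusted p of 0.821 and 0.803.

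Among blood cells, the 10 neutrophil markers summed to 2.53, 3.10 and 3.39 CPM at 6 months and 2.13, 5.96 and 5.20 CPM at 24 months, again lowest in mouse 2. Ngp, a neutrophil granule protein, had 25, 42 and 56 counts against 5, 61 and 67 counts. S100a8, a calcium-binding protein of these cells, had an adjusted p of 0.579, and Mpo (myeloperoxidase) passed 10% FDR with 0 to 5 counts at 6 months and 11 to 18 at 24 months. The 10 platelet markers summed to 5.68 to 7.51 CPM at 6 months and 7.91 to 8.47 CPM at 24 months, and Gp6 (a collagen receptor) and Tubb1 (platelet tubulin) passed 10% FDR. Treml1, with ages that did not overlap, and Itga2b, an integrin, had adjusted p of 0.186 and 0.515. Pf4 (platelet factor), the most abundant of them, had 21 to 46 counts at 6 months and 19 to 42 counts at 24 months. The 10 lymphocyte markers summed to 0.681 to 1.34 CPM at 6 months and 2.56 to 4.28 CPM at 24 months, and 5 of 10 passed 10% FDR in the higher direction. Of all genes tested, 10.0% passed in that direction, and 20.0% of those with a mean under 1 TPM, where 9 of these 10 markers lay, as did Mpo, Gp6 and Tubb1. Genes that low could reach the 10 counts needed for testing through their 24-month counts. Ms4a1, a B cell surface protein, had 1, 2 and 4 counts at 6 months and 28, 23 and 14 counts at 24 months. Cd8a and Nkg7, of T and natural killer cells, also passed, with log2 fold changes of 2.81 and 3.30, and Cd79b, of B cells, had an adjusted p of 0.127. No defining marker of these blood cell lists was at 0 in all libraries. The part of these cells, and of the vessels, in the hemoglobin values was not tested.

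**Figure D5:**
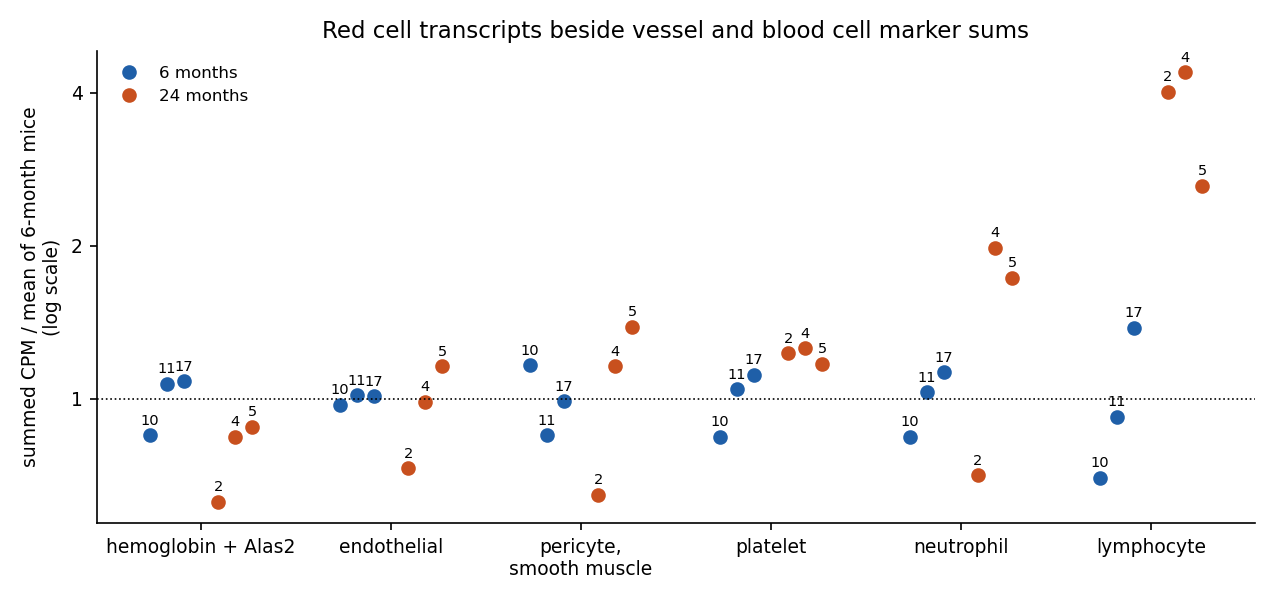
Summed CPM of the members and of 5 marker lists in each mouse, divided by the mean of the 6-month mice (log scale); points are mice with their numbers, by age. Mouse 2 is lowest for the members and the endothelial, pericyte and neutrophil lists, while all 24-month mice are high for lymphocyte markers.

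Markers of the labelled tissue were high in every library. The 10 cortical neuron markers summed to 7599, 6570 and 6576 CPM at 6 months and 5037, 5696 and 6337 CPM at 24 months. All 24-month mice were below all 6-month mice, with mouse 2 the lowest. Snap25, a synaptic protein, had a mean of 2500 TPM. The ages did not overlap in CPM for Snap25, Rbfox3 and Cux2, with fitted log2 fold changes of −0.31, −0.17 and 0.45 and adjusted p of 0.118, 0.212 and 0.142, and the value of Rbfox3 turned to 0.024 under library totals. In the lower direction, 4 of the 10 neuron markers did not overlap. The same held for 16.3% of all genes tested and 32.5% of those with a mean CPM of at least 1. The transcription factor Neurod6 fell by 0.44 on the log2 scale (adjusted p = 0.063). Under library totals its log2 fold change was −0.25 and it did not pass (adjusted p = 0.237 by the edgeR test). Choroid plexus and meningeal markers summed to 51.3 to 68.2 CPM at 6 months and 48.2 to 93.8 CPM at 24 months, highest in mouse 4, with adjusted p of 0.645 for Ttr (transthyretin) and 0.956 for Dcn (decorin), and 0 of 8 passed 10% FDR by the edgeR test or had an unadjusted p under 0.05. Glial markers summed to 1626 to 3983 CPM, with the lowest value in mouse 2. Gfap, the filament protein of astrocytes, rose by 0.69 on the log2 scale (adjusted p = 0.074), the water channel Aqp4 had an adjusted p of 0.102, and the myelin gene Mbp had an adjusted p of 0.895.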

How the data were processed

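Cortex RNA of 6 mice, 3 per age, was analysed, with 1 library per mouse and ages taken from the sample titles. Per the labels and the study's methods, 10 ng of RNA went into each library (NEBNext low-input chemistry), which was read as single ends of 75 bases. The authors trimmed reads with Trim Galore 0.6.4, aligned them to GRCm38 with STAR 2.7.3a and deposited whole counts per gene from featureCounts (Subread 2.0.0). The authors also deposited TPM values per library, in which the counts are divided by gene length. The age difference of every gene reaching 10 counts in all was fitted in edgeR 4.0.16 (R 4.3.3), by quasi-likelihood with TMM scaling and Benjamini-Hochberg adjustment over all genes. The thresholds were 1% FDR, as in the study, and 10% FDR. Alternatives used limma 3.58.1 and DESeq2 1.42.0. Sums and ratios were compared by two-sided exact permutation tests with scipy. In data simulated from these libraries (31701 genes), the 200 changed genes were drawn from those with a mean CPM above 1. All other genes were simulated without an age difference. Of the changes of 1 on the log2 scale, 80% passed 10% FDR and 58% passed 1% FDR. The fitted changes of the members were smaller, from −0.18 for Alas2 to −0.64 for Hbb-bt. The share that passes at such sizes, among genes at lower levels or with a broad difference between libraries was not tested. In the age fit of the libraries themselves, 0 of 32905 genes passed 1% FDR.

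The members and gene lists were chosen with earlier results of these data known. Named list genes were those past 10% FDR or non-overlapping in CPM, up to 4 per list and direction by p, and the 2 most abundant of each list. Defining genes such as Slc4a1, Car1, Gata1 and Klf1 were added after their values were seen. The most alike genes were the 10 of highest Pearson r. The split by 1 TPM was chosen after the data were seen. The gene Tf was matched as Trf by its RefSeq synonym, and 1 list gene was not analysed here. Some named genes are not reported here, though the counts over lists include them. A count of 0 was taken to allow up to 3 counts, for counting error only. Gene positions came from GENCODE and promoters from RefSeq.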

Additional observations from a re-analysis of the deposited data

How the results depend on the processing

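The number of members past 10% FDR was 1, and it was 0 with library totals only, with the expression filter of edgeR and with no filter. Leaving out 1 mouse at a time gave 0 to 3. The red cell lists had 6 higher and 6 lower genes at 10% FDR. The higher count was 2 with DESeq2, with the expression filter and with no filter, and 0 to 7 without 1 mouse. The lower count was 3 with DESeq2, 1 with library totals only, 1 with the expression filter, 2 with no filter and 0 to 8 without 1 mouse. No member passed 1% FDR under any setting run. The log2 fold change of Alas2 changed sign with library totals only (0.0051) and without the 24-month mouse 2 (0.045), with a range from −0.35 to 0.05 when 1 mouse was left out, while those of the 4 hemoglobin genes stayed below 0 in all 15 alternatives run for each. Leaving out 1 mouse at a time, the log2 ratio of the summed hemoglobin CPM ranged from −0.48 to −0.22 and the log2 difference of the beta to alpha ratio from −0.13 to −0.01. That of Hbb-bt to Hbb-bs ranged from −0.41 to −0.22, that of Hba-a2 to Hba-a1 from −0.28 to −0.10, and that of Alas2 to hemoglobin from 0.04 to 0.27. Over all genes, 6040 passed 10% FDR, 3299 higher and 2741 lower. With library totals only it was 4439, 4121 higher and 318 lower, with DESeq2 3048, with the expression filter 1538, and with no filter 4014. Leaving out 1 mouse gave 0 to 7998 genes. The expression filter and no filter also change how many genes are tested, and the cause of the other shifts was not tested. No paired analysis was possible because each mouse gave 1 library, at 1 age. With 80 to 215 counts per library for Hbb-bt and 83 to 161 for Alas2, counting error adds to the spread between mice.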

Other observations

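Hemoglobin counts were also set against vessel marker counts of the same library, a scaling chosen after the values were seen. Per count of the 10 brain endothelial markers, the summed hemoglobin counts were 0.296, 0.358 and 0.362 in the 6-month mice 10, 11 and 17 and 0.292, 0.285 and 0.257 in the 24-month mice 2, 4 and 5. The ages did not overlap, with mouse 10 and mouse 2 close to each other, and the log2 difference was −0.28 with an exact two-sided permutation p of 0.1, the smallest that 3 mice per age allow. Per count of the 8 pericyte and smooth muscle markers, the means were 0.352 ± 0.0935 at 6 months and 0.265 ± 0.0606 at 24 months (SD, n = 3 each). The ages overlapped, and the log2 difference was −0.40 (exact permutation p = 0.2). On the endothelial scale mouse 2 was the highest of the 24-month mice, whereas in CPM it was the lowest of all.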
